A study of Mus musculus with 4 samples.

Results

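The difference of the transitions asks, for each gene, whether the move of mouse embryonic stem cells (ESCs) from serum/LIF to F/A ran differently in cells without Cripto. It is the log2 ratio of F/A to serum/LIF in Cripto KO minus that ratio in WT, computed from quantile-normalized counts with a count of 0 replaced by 0.5. A positive value means that the gene ended relatively higher in Cripto KO after the move, and a value of 1 or -1 is a 2-fold difference between the changes. The genes described are the 10811 with at least 200 raw counts in at least 1 library, out of 37620 genes counted and 15462 that passed the low-expression filter of the authors. Without Cripto, targets of Nodal and markers of endoderm and primed epiblast had mostly negative differences, with a median of -1.92 for Nodal targets. Targets of BMP and genes of the retinoic acid pathway had mostly positive ones, though some entered only by being high in Cripto KO F/A. Subunits of the respiratory chain and the ribosome fell less, with a median difference of 0.80 for the respiratory chain.

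The cells were R1 ESCs of strain 129/Sv, either WT or Cripto KO, and all 4 cultures came from this line. Serum/LIF is the medium in which ESCs were kept, and F/A is N2B27 with bFGF and Activin A at 20 ng per ml, in which cells seeded at low density were grown for 6 days to obtain epiblast stem cells (EpiSCs). Each of the 4 cultures gave 1 RNA library, with between 15230856 and 17315442 counts on genes, and the labels do not say which Cripto KO clone was used. No value therefore has a replicate error, and no difference below was tested; the interval given with a difference is a 95% counting interval and covers the counting of reads only, not the spread between cultures.

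Cripto, encoded by Tdgf1, is a membrane-anchored protein that serves as a co-receptor for Nodal, a ligand of the TGF-beta family that keeps the epiblast of the early embryo undifferentiated and patterns it. Activin A uses the same type I and type II receptors and the same Smad2 and Smad3 effectors without needing Cripto, and is used in place of Nodal in EpiSC medium. ESCs in serum/LIF resemble the naive epiblast before implantation, EpiSCs the primed epiblast after it, and primed cells lie close to the primitive streak, from which mesoderm and endoderm arise.

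Reads on Tdgf1 itself checked the labels. Its normalized counts went from 16812 to 1596 in WT and from 961 to 89.8 in Cripto KO, so the log2 ratio of Cripto KO to WT was -4.13 in serum/LIF and -4.15 in F/A and the difference of the transitions was -0.02 (95% counting interval -0.47 to 0.42). The loss of these reads was as deep in one culture as in the other, and Tdgf1 takes no part in what follows. Marker genes of ESCs summed to 5428 CPM (counts scaled to the library total) in WT and 4893 in Cripto KO in serum/LIF and to 185.5 and 144.3 in F/A, whereas 5 EpiSC markers summed to 169 and 184 in serum/LIF and to 1107 and 576 in F/A. Of these markers Pou3f1 stayed low, at 4 and 15 raw counts in WT and 1 and 10 in Cripto KO. In the F/A library of Cripto KO nearly all counts were even, only 3 being odd, and its counts were divided by 2 wherever a counting interval was computed; a count of 6 in that library, and of 3 in the others, was taken as the detection limit.

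Most genes moved alike in both genotypes. The 2 changes had a correlation of r = 0.937 across the 10811 genes, which share 4 libraries and are not replicates, and 83.1% of genes changed in the same direction. The median difference was 0.01 and its quartiles were -0.37 and 0.37. A difference of at least 1 was found for 424 genes (3.92%) and one of at most -1 for 614 genes (5.68%), and 50.6% of all genes had a difference above 0. These 1038 genes fell into 3 classes. In the first, 323 genes (2.99%) changed in the same direction in both genotypes and more in Cripto KO, 139 of them rising and 184 falling. In the second, 481 genes (4.45%) changed in the same direction but less in Cripto KO, 297 rising and 184 falling. In the third, 234 genes (2.16%) changed in opposite directions, 101 going up and 133 going down in Cripto KO.

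**Figure D1:**
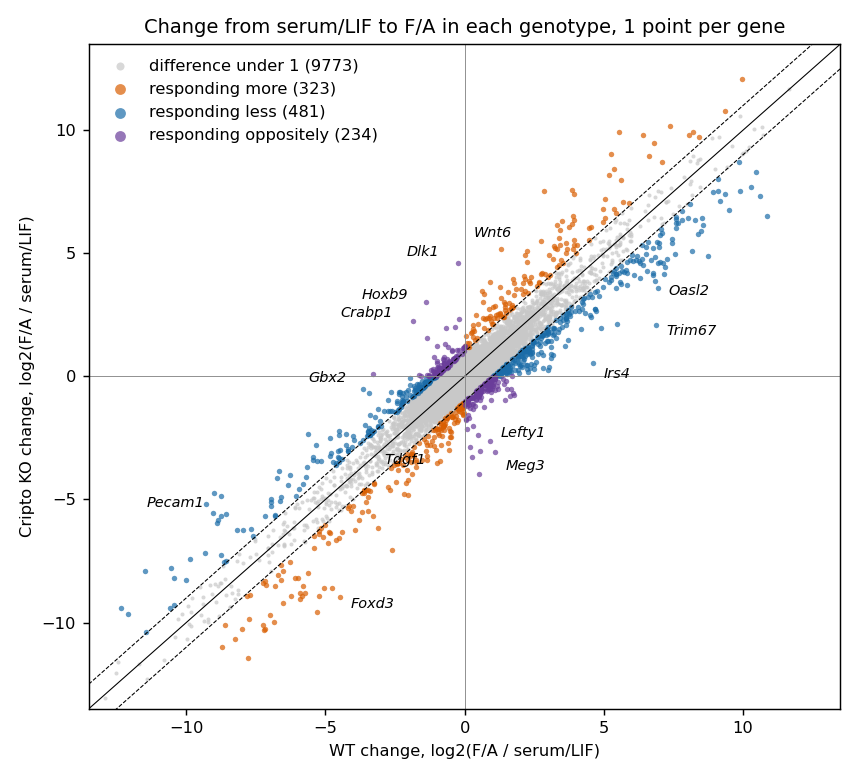
Log2 ratio of F/A to serum/LIF in WT (horizontal) and in Cripto KO (vertical), 1 point for each of the 10811 genes. The solid line marks equal changes and the dashed lines a difference of 1 and -1; the 323, 481 and 234 coloured genes outside the dashed lines respond more, less or oppositely in Cripto KO, and Tdgf1 lies on the solid line.

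The commonest form was a rise that was blunted. The 297 genes that rose less changed by a median of 3.0 on the log2 scale in WT but of only 1.67 in Cripto KO, and the 184 genes that fell less had medians of -3.07 and -1.43. The 139 genes that rose more had medians of 2.22 in WT and 3.86 in Cripto KO. Genes of the opposite class moved little in either genotype, with median changes of -0.78 and 0.43 among the 101 that went up in Cripto KO and of 0.68 and -0.61 among the 133 that went down. Only 5 of the 234 changed at least 2-fold in both genotypes, and they were Crabp1, Emid2, Hoxb9, Meg3 and Ptges.

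The differences lay mainly in F/A. Of the 1038 genes, 785 had a log2 ratio of Cripto KO to WT of larger size in F/A than in serum/LIF, and 253 one of larger size in serum/LIF. A ratio of at least 2-fold was reached by 425 genes in F/A, by 148 in serum/LIF and by 504 in neither culture. For 855 genes the ratios had opposite signs. Genes that rose less were the class with most weight on serum/LIF, where 78 of 297 already differed by at least 2-fold before the move.

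**Figure D2:**
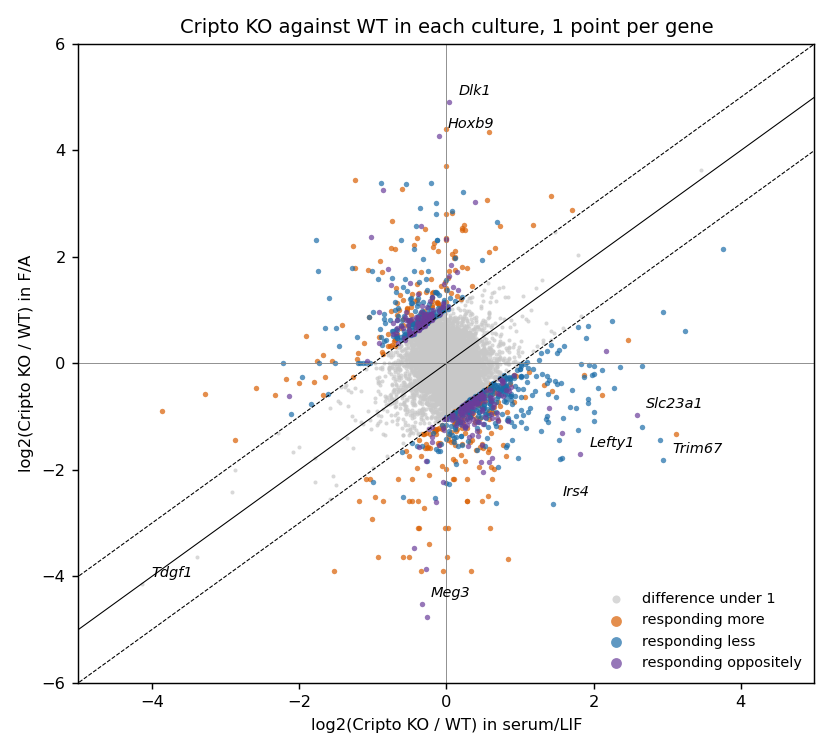
Log2 ratio of Cripto KO to WT in serum/LIF (horizontal) and in F/A (vertical), 1 point per gene, coloured by class; the solid line marks equal ratios and the dashed lines a difference of the transitions of 1 and -1. Dlk1, Hoxb9 and Meg3 differ in F/A alone, whereas Slc23a1, Lefty1, Irs4 and Trim67 were already higher in Cripto KO in serum/LIF, and Tdgf1 is equally low in both.

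Of the 1038 genes, 906 were above the detection limit in every library, and 69 others allowed only a bound on the difference and 63 none. For a gene absent from serum/LIF in both genotypes, such as Fgf5, the F/A levels are given in place of a difference. Gene groups, whose members were listed with earlier results of these data known, are described by their median, and by how many members were at or beyond 1 or -1, to be read against 3.92% and 5.68% of all genes; members entered by reaching 200 counts in any library, so genes silent in serum/LIF entered through F/A, and a gene that entered through Cripto KO F/A alone had to be high there.

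**Figure D3:**
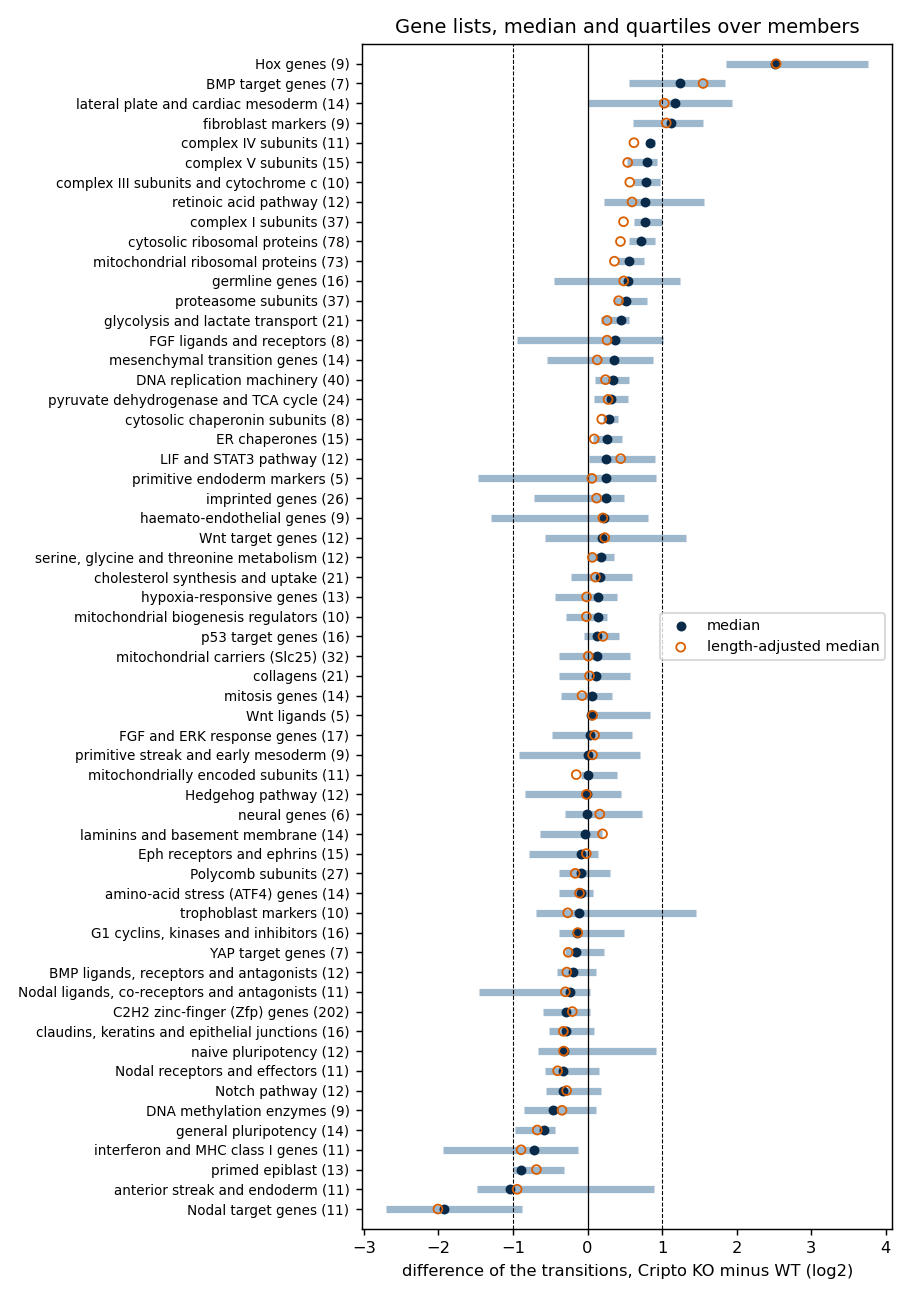
Median (filled) and quartiles (bar) of the difference of the transitions over the members of each gene list, with the number of members in brackets, for lists of 5 or more; open circles show the median after the trend with transcript length had been subtracted. Nodal target genes lie lowest at -1.92, the highest list, Hox genes, holds members that entered through Cripto KO F/A alone, and the dashed lines mark 1 and -1.

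Nodal target genes stood lowest of all lists. The median difference of the 11 members measured was -1.92, 7 of them were at most -1 and 0 at least 1. With members at the detection limit put at their bound or dropped the median was -1.23. Lefty1, a secreted Nodal antagonist and a direct target of the pathway, had normalized counts of 654 in WT serum/LIF, 1219 in WT F/A, 2304 in Cripto KO serum/LIF and 376 in Cripto KO F/A. It thus went up in WT and down in Cripto KO, with a difference of -3.51 (interval -3.77 to -3.26). Lefty2, its neighbour and paralogue, went from 419.8 to 591 in WT and from 1244 to 238 in Cripto KO, a difference of -2.88 (interval -3.20 to -2.55). Both genes began about as far above WT in Cripto KO serum/LIF as they ended below it in F/A. Over the whole list the median log2 ratio of Cripto KO to WT was 0.68 in serum/LIF and -1.31 in F/A.

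Foxa2, the forkhead factor of definitive endoderm and node, went from 3.75 to 1390.2 in WT and from 10.5 to 897 in Cripto KO, a difference of -2.12 (interval -3.59 to -0.64), the larger part of which lay in its few serum/LIF counts. Lhx1, a factor of the anterior streak, did not exceed the detection limit in either serum/LIF library and read 1964 in WT F/A and 319.8 in Cripto KO F/A, and Cer1, a secreted antagonist of Nodal, BMP and Wnt, read 487 in WT F/A and 85.8 in Cripto KO F/A. Gsc, a homeodomain factor of the anterior streak, was at the limit in Cripto KO serum/LIF and read 232 in WT F/A and 58.2 in Cripto KO F/A, which makes its difference at least -0.99 and gives it no direction. Skil, a Smad corepressor induced by the pathway, rose in WT but fell in Cripto KO and went from 2029 to 2973 in WT and from 3258 to 2029 in Cripto KO, a difference of -1.23 (interval -1.36 to -1.10).

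The upstream components moved much less than the targets. Among 11 ligands, co-receptors and antagonists the median was -0.24, and the 3 members at most -1 were Lefty1, Lefty2 and Cer1, which are also in the target list. Nodal itself went from 519 to 732 in WT and from 786 to 563 in Cripto KO, a difference of -0.98 (interval -1.23 to -0.72). Of 11 receptors and effectors only Skil passed 1 in either direction and their median was -0.33; Smad2, which carries the signal, had -0.69, and the receptors Acvr1b and Acvr2a had -0.58 and -0.56.

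Genes of anterior streak and endoderm, into which EpiSCs readily pass, had mostly negative differences too. Foxa2, Cer1 and Gsc are in both this list and that of Nodal targets. Their median was -1.04, and 6 of 11 members were at most -1 against 2 at least 1. Over the members with at least 1000 counts in a library, the median was only -0.07. Sox17, which directs endoderm formation, went from 7.75 to 701 in WT and from 8.5 to 269.6 in Cripto KO, a difference of -1.51 (interval -2.81 to -0.22). Gata6 ran the other way and went from 14.8 to 484 in WT and from 5.5 to 800.2 in Cripto KO, a difference of 2.15 (interval 0.84 to 3.45), and it is shared with mesoderm and primitive endoderm. The streak genes had a median of 0.00 over 9 members, but the median was -0.79 over members with at least 1000 counts in a library and also without a count minimum. T (Brachyury), the mesoderm factor of the streak, went from 10.2 to 9615 in WT and from 3.75 to 5750.5 in Cripto KO and had a difference of 0.71 (interval -0.83 to 2.25), an interval set by few serum/LIF counts.

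Markers of the primed epiblast had mostly negative differences. Over 13 genes the median was -0.89, 3 were at most -1 and 1 at least 1, 10 were below 0, and the median with bounds was -0.57. Otx2, a homeodomain factor of primed and anterior epiblast, had 1256 in WT serum/LIF, 2428 in WT F/A, 1040 in Cripto KO serum/LIF and 679.8 in Cripto KO F/A, and its difference was -1.56 (interval -1.77 to -1.36). Foxd3, a forkhead factor needed in the epiblast, fell in both genotypes but to the detection limit in Cripto KO, going from 702 to 31.8 in WT and from 1259 to 2.5 in Cripto KO, which makes its difference at most -3.21. Pim2, a survival kinase, went from 490 to 1341 in WT and from 749.9 to 391 in Cripto KO, a difference of -2.39 (interval -2.66 to -2.12). Fgf5, the textbook marker of primed cells, did not pass the limit in serum/LIF and read 2266 in WT F/A and 389 in Cripto KO F/A. Lef1, the Wnt effector placed in this list, went the other way, from 194 to 858 in WT and from 93.5 to 1571 in Cripto KO, a difference of 1.93 (interval 1.55 to 2.31).

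General pluripotency genes fell further in Cripto KO, with a median of -0.59 and 12 of 14 below 0. L1td1, an RNA-binding protein of pluripotent cells, went from 9688 to 1524 in WT and from 11162 to 460.2 in Cripto KO, a difference of -1.93 (interval -2.13 to -1.73), and Utf1, a chromatin-bound factor, went from 4269.5 to 443 in WT and from 3299 to 164 in Cripto KO, with -1.06 (interval -1.41 to -0.71). Pou5f1 (Oct4), the central factor, went from 23610.5 to 1854 in WT and from 21221 to 1223 in Cripto KO, and its difference of -0.45 (interval -0.58 to -0.31) stayed under the threshold. Nanog went from 10675 to 265 in WT and from 7109 to 128 in Cripto KO, with -0.47 (interval -0.87 to -0.07). Pou5f1 fell 12.7-fold in WT and 17.4-fold in Cripto KO, so what differed was the depth of a shared loss.

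BMP target genes had positive differences. All 7 measured had a difference above 0, 4 were at least 1 and the median was 1.25, or 0.41 over members with at least 1000 counts in a library. Msx1, a homeodomain factor of posterior and lateral tissues, went from 3.75 to 184 in WT and from 3.75 to 944 in Cripto KO, a difference of 2.35 (interval 0.54 to 4.17). Msx2, its relative, went from 14 to 132 in WT and from 14.8 to 554 in Cripto KO, with 1.99 (interval 0.96 to 3.02). The inhibitory Smad6, induced by BMP to restrain it, went from 72.5 to 312 in WT and from 56 to 781 in Cripto KO, a difference of 1.69 (interval 1.16 to 2.23), and Bambi, a pseudoreceptor with the same role, went from 157 to 383 in WT and from 145 to 838 in Cripto KO, with 1.25 (interval 0.86 to 1.63). Of the 7 members 5 reached 200 counts in a WT library, with differences from 0.24 for Id2 to 1.69 for Smad6. Msx1 and Msx2, which had the largest differences, did so in Cripto KO alone and had to be high there. Msx1, Msx2, Smad6 and Bambi were close between the genotypes in serum/LIF and separated in F/A.

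Among BMP ligands, receptors and antagonists the differences did not run one way, and the median over 12 was -0.20. Bmp4, the main BMP ligand of the early embryo, went from 501 to 936 in WT and from 358 to 1944 in Cripto KO, a difference of 1.54 (interval 1.30 to 1.77). Chrd (Chordin), which binds BMP and keeps it from its receptors, went from 247 to 1069 in WT and from 285 to 592 in Cripto KO, a difference of -1.06 (interval -1.36 to -0.75) that was -0.97 with TMM factors. Bmp4 and Chrd therefore parted, Bmp4 rising more and Chrd less. Other ligands and antagonists did not share this split. The ligands Bmp2 and Bmp7 had -0.59 and 0.61, and the antagonists Nog and Grem1 had -0.31 and -0.04. Bmp5 was at the limit in serum/LIF and read 258 in WT F/A and 425 in Cripto KO F/A.

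**Figure D4:**
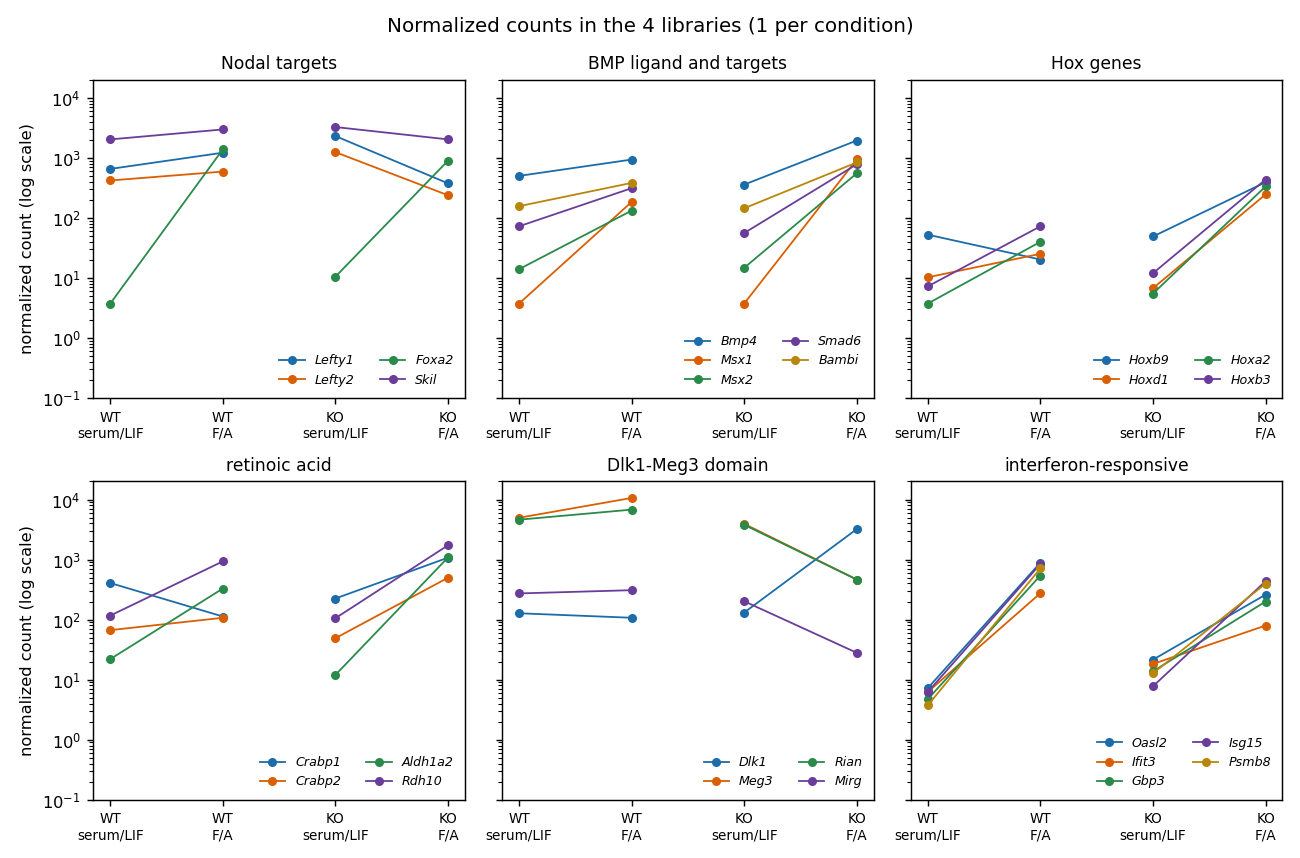
Normalized counts (log scale) of named genes in the 4 libraries, 1 point per library, with a line joining serum/LIF to F/A within a genotype. Lefty1 and Lefty2 cross from higher to lower in Cripto KO. The BMP, Hox and retinoic acid genes climb further in Cripto KO, except Hoxb9 and Crabp1, which fall in WT and climb in Cripto KO. Dlk1 and Meg3 move apart, and the interferon-responsive genes climb less.

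Lateral plate and cardiac mesoderm genes had a median of 1.17, or 0.88 with members at the detection limit put at their bound or dropped. Of 14 members 7 were at least 1 and 2 at most -1. In a WT library 9 of them reached 200 counts. The others, among them Hand1, Hand2 and Foxc2, entered through Cripto KO alone and had to be high there. The median is therefore given as a description. Hand1, a bHLH factor of lateral and extraembryonic mesoderm and of trophoblast, was at or under the limit in serum/LIF and read 200.2 in WT F/A and 1777 in Cripto KO F/A, a log2 ratio of 3.15. Hand2, its partner, read 83 in WT F/A and 578 in Cripto KO F/A. Foxc2, a forkhead factor of mesoderm, went from 12.8 to 173 in WT and from 14.8 to 988 in Cripto KO, a difference of 2.31 (interval 1.27 to 3.34).

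Cdx2, a caudal factor of both trophoblast and the posterior axis, was at or under the limit in serum/LIF and read 106 in WT F/A and 676 in Cripto KO F/A, a log2 ratio of 2.67. Nkx1-2, which marks the posterior progenitors alone, went from 12 to 97.2 in WT and from 7.75 to 238 in Cripto KO, a difference of 1.92 (interval 0.66 to 3.19). Only 4 genes of that list had enough counts, and their median of 0.66 changed sign to -0.60 when members at the limit were put at their bound or dropped. In a WT library only 2 of the 4 had enough counts. They were Sp5, with a difference of -0.60, and Cyp26a1, which allowed only a lower bound. Cdx2 and Nkx1-2 entered through Cripto KO alone and had to be high there, so their values are given as a description.

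Trophoblast genes as a list were not displaced. Their median was -0.11 over 10 members of 23 named, with 3 at least 1 and 2 at most -1. Of the 10 members 8 reached 200 counts in a WT library, and Cdx2 and Hand1 entered through Cripto KO alone. The members at least 1 were Cdx2, Hand1 and Krt7, an epithelial keratin that went from 63.2 to 782 in WT and from 18.8 to 805 in Cripto KO, a difference of 1.80 (interval 1.05 to 2.54). Gata3, a trophoblast and surface ectoderm factor, read 242 in WT F/A and 252 in Cripto KO F/A, so the F/A levels were alike. The markers Tpbpa and Prl3d1 of later trophoblast had 0 counts in all 4 libraries, and Elf5 had 0, 2, 0 and 0 raw counts in the order WT serum/LIF, WT F/A, Cripto KO serum/LIF and Cripto KO F/A. In CPM the trophoblast markers checked summed to 167.6 in WT F/A and 199.5 in Cripto KO F/A. These sums held differences in opposite directions. Eomes, which is also in the Nodal target list, had 1963 raw counts in WT F/A and 422 in Cripto KO F/A. Hand1 had 196 and 1730, and Cdx2 had 104 and 674.

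Of 40 Hox genes, the homeodomain factors that give cells their place along the body axis, 9 had enough counts. None of the 9 reached 200 counts in a WT library (0 of 9), so each entered through Cripto KO alone and had to be high there; their differences, with a median of 2.51, are given as a description. Without a count minimum the median was 3.68, and 2 of the 9 were at the limit in serum/LIF. Hoxb9 had 52.5 in WT serum/LIF, 20.2 in WT F/A, 49 in Cripto KO serum/LIF and 393 in Cripto KO F/A, going down in WT and up in Cripto KO, with a difference of 4.38 (interval 3.51 to 5.24). Hoxd1 went from 10.2 to 25.2 in WT and from 6.75 to 246 in Cripto KO, a difference of 3.89 (interval 2.45 to 5.32). Hoxd3 was at the limit in serum/LIF and read 19.2 in WT F/A and 393 in Cripto KO F/A. The 9 genes came from the A, B and D clusters and held both anterior members such as Hoxd1 and the more posterior Hoxb9.

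Genes of the retinoic acid pathway, a signal known to induce Hox genes, had mostly positive differences. The median over 12 members was 0.78, 6 were at least 1 and 0 at most -1. Aldh1a2, the enzyme that makes retinoic acid in the embryo, went from 22 to 329.5 in WT and from 12 to 1084 in Cripto KO, a difference of 2.59 (interval 1.61 to 3.58). Crabp1, which binds retinoic acid in the cytoplasm, had 406 in WT serum/LIF, 112 in WT F/A, 224 in Cripto KO serum/LIF and 1076 in Cripto KO F/A. It fell in WT and rose in Cripto KO, with a difference of 4.11 (interval 3.73 to 4.49), and Crabp2 went from 66.8 to 107 in WT and from 49 to 498 in Cripto KO, with 2.66 (interval 2.05 to 3.28). Of the 12 members 11 reached the count minimum in a WT library, and Crabp2 entered through Cripto KO F/A alone and had to be high there. Cyp26a1, which breaks retinoic acid down, ran the other way in F/A, with 5030 in WT F/A and 1792 in Cripto KO F/A.

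Wnt ligands and targets were mixed. Wnt6 went from 68 to 324 in WT and from 36.5 to 1232 in Cripto KO, a difference of 2.83 (interval 2.22 to 3.43), while the other 4 ligands measured lay between -0.88 and 0.83. Of 12 targets 4 were at least 1 and 1 at most -1, with a median of 0.20. Notum, a secreted enzyme that inactivates Wnt, had 301 in WT serum/LIF, 30.5 in WT F/A, 148 in Cripto KO serum/LIF and 158 in Cripto KO F/A, so it fell in WT and stayed level in Cripto KO, a difference of 3.39 (interval 2.72 to 4.07). Tnfrsf19, a receptor induced by Wnt, went from 336 to 1657 in WT and from 232 to 3362 in Cripto KO, a difference of 1.56 (interval 1.30 to 1.82). Dkk1, a Wnt antagonist that was at the limit in serum/LIF, read 1072 in WT F/A and 940.2 in Cripto KO F/A. Fzd5, a Wnt receptor named for its place among the genes that fell more, went from 6131 to 4125 in WT and from 4949 to 627 in Cripto KO, a difference of -2.41 (interval -2.58 to -2.23).

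FGF, Hedgehog and Notch genes showed single members rather than a list that moved. Medians were 0.04 for 17 genes that respond to FGF and ERK, close to 0 for 12 Hedgehog genes and -0.33 for 12 Notch genes. The receptors Fgfr3 and Fgfr2 parted, Fgfr3 going from 104 to 537 in WT and from 69.2 to 960.5 in Cripto KO, a difference of 1.43 (interval 0.96 to 1.90), and Fgfr2 going from 119 to 1088 in WT and from 176 to 692 in Cripto KO, with -1.21 (interval -1.59 to -0.84). Ptch1, the Hedgehog receptor and itself a target of the pathway, had 2148 in WT serum/LIF, 11199.8 in WT F/A, 6061 in Cripto KO serum/LIF and 8618 in Cripto KO F/A, a difference of -1.88 (interval -1.96 to -1.79). Boc, a Hedgehog co-receptor, went from 119 to 255 in WT and from 78.8 to 578 in Cripto KO, with 1.78 (interval 1.30 to 2.25). Hey1, a Notch target, went from 71.5 to 119 in WT and from 45 to 224 in Cripto KO, a difference of 1.58 (interval 0.93 to 2.23). Hey1 entered through Cripto KO F/A alone and had to be high there, so its value is given as a description. Egr1, an immediate response gene of ERK, fell less and went from 2756 to 701 in WT and from 2392 to 1406 in Cripto KO, with 1.21 (interval 1.04 to 1.38).

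The largest difference of any gene above the detection limit belonged to Dlk1, and its neighbours moved against it. Dlk1, a Notch-like membrane protein, and the non-coding transcripts Meg3, Rian and Mirg lie in one imprinted domain on chromosome 12 (NCBIM37), Dlk1 at 110691033 to 110701546, Meg3 at 110779211 to 110809936, Rian at 110842155 to 110899919 and Mirg at 110973191 to 110987665, all on the plus strand. In imprinted domains only the copy from one parent is active, and Dlk1 is known as paternally and the 3 others as maternally expressed. Dlk1 had 128 in WT serum/LIF, 107 in WT F/A, 131 in Cripto KO serum/LIF and 3218 in Cripto KO F/A, a difference of 4.87 (interval 4.41 to 5.32). Dlk1 entered through Cripto KO F/A alone and had to be high there, so its rank is given as a description. Meg3 had 4965 in WT serum/LIF, 10618 in WT F/A, 3934 in Cripto KO serum/LIF and 464 in Cripto KO F/A, a difference of -4.18 (interval -4.38 to -3.98). Rian went from 4612 to 6786 in WT and from 3791 to 464 in Cripto KO, with -3.59 (interval -3.78 to -3.39), and Mirg went from 273 to 309 in WT and from 202 to 28 in Cripto KO, with -3.03 (interval -3.89 to -2.17).

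In serum/LIF the 4 genes differed from WT by at most 1.35-fold, and the split was seen in F/A alone, where Dlk1 was 30.0 times as high in Cripto KO and Meg3 22.9 times as low. The other 22 imprinted genes measured had a median difference of 0.25, with 1 at least 1 and 1 at most -1. Ndn, a growth suppressor of the MAGE family, was the former with 1.29 (interval 0.89 to 1.69), and Peg3, a zinc-finger protein, the latter with -1.35 (interval -1.48 to -1.23); both were named after their values had been seen.

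Naive pluripotency genes fell in both genotypes, and all 12 measured were lower in F/A. Their median difference was -0.31, which changed sign to 0.18 with members at the limit put at their bound or dropped, so the list gives no direction. Of the 12 genes 3 were at least 1 and 8 were below 0, among them Esrrb at -0.69 and Zfp42 at -0.65. The genes at least 1 were shut off less in Cripto KO, as was Gbx2 of the LIF and STAT3 list. Pecam1, an adhesion protein of ESCs and endothelium, went from 3747 to 9.75 in WT and from 2822 to 58.2 in Cripto KO, a difference of 2.99 (interval 1.92 to 4.05). Tbx3, a T-box factor of naive cells, went from 8232 to 298 in WT and from 4568 to 530 in Cripto KO, with 1.68 (interval 1.44 to 1.93). Gbx2, a homeodomain factor downstream of LIF and STAT3, had 569.8 in WT serum/LIF, 45 in WT F/A, 515 in Cripto KO serum/LIF and 362 in Cripto KO F/A, so it was nearly lost in WT and largely retained in Cripto KO, a difference of 3.15 (interval 2.65 to 3.66). Among 12 genes of the LIF and STAT3 pathway the median was 0.25, 3 were at least 1 and 0 at most -1, and Bcl3, a coactivator of NF-kappaB, had 1.48 (interval 0.87 to 2.09). Prdm14, a repressor that guards naive cells, reached 0 in Cripto KO F/A, which makes its difference at most 0.48 and gives it no direction.

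Of 16 germline genes, silent in most somatic cells, 9 allowed no difference because libraries were at or under the detection limit. The list median of 0.54 became -0.38 with bounds, so it is not read. Mael, a protein of the piRNA pathway, went from 1120.5 to 0.75 in WT and from 556 to 2.5 in Cripto KO, and Dazl, an RNA-binding protein of germ cells, went from 514 to 0 in WT and from 155 to 0 in Cripto KO, each a fall to the limit in both genotypes.

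Interferon-responsive and MHC class I genes, which report innate immune signalling and antigen display, mostly rose less in Cripto KO. The median over 11 members was -0.71, all of them were higher in F/A than in serum/LIF in both genotypes, 5 were at most -1 and 0 at least 1. Over members with at least 1000 counts in a library the median was -0.22. Oasl2, an antiviral protein related to oligoadenylate synthases, went from 7.25 to 892 in WT and from 21.5 to 260.2 in Cripto KO, a difference of -3.35 (interval -4.47 to -2.22). Ifit3, an interferon-induced antiviral protein, went from 6.25 to 276 in WT and from 18.2 to 79.5 in Cripto KO, with -3.34 (interval -4.61 to -2.07). Psmb8, the immunoproteasome subunit that shapes antigen peptides, went from 3.75 to 713 in WT and from 12.8 to 397 in Cripto KO, with -2.61 (interval -4.06 to -1.16). Isg15, a ubiquitin-like protein, went from 6.25 to 846 in WT and from 7.75 to 436 in Cripto KO, and its interval reached 0, at -1.27 (interval -2.66 to 0.12). Gbp3, a guanylate-binding protein outside this list but among the 5 protein-coding genes with the largest blunted rise, went from 4.75 to 542 in WT and from 13.8 to 199.8 in Cripto KO, a difference of -2.97 (interval -4.34 to -1.60). Part of the difference of Oasl2 and Ifit3, and the larger part for Psmb8 and Gbp3, lay in few serum/LIF counts. Across the list the median log2 ratio of Cripto KO to WT was 0.22 in serum/LIF and -0.55 in F/A.

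The promoters of 3 of these genes are shown because they carry the letters of the interferon-stimulated response element, GAAANNGAAA or its reverse complement TTTCNNTTTC, which is bound by an interferon-induced complex that holds Stat2 and Irf9. The windows run from 250 bases before to 50 after the start that RefSeq annotates on GRCm38.p6, in the direction of transcription, with each match in capitals; overlapping matches run together. They are Isg15 at chr4:156200769-156201068 (minus strand), Ifit3 at chr19:34583279-34583578 (plus strand) and Gbp3 at chr3:142559794-142560093 (plus strand), the first of 2 annotated Gbp3 starts; the window of the other holds no match.
Isg15: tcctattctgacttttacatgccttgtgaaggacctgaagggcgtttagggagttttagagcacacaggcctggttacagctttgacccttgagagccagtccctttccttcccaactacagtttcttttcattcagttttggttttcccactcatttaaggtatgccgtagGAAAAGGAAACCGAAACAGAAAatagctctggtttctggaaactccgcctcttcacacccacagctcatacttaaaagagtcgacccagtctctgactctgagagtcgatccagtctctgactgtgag
Ifit3: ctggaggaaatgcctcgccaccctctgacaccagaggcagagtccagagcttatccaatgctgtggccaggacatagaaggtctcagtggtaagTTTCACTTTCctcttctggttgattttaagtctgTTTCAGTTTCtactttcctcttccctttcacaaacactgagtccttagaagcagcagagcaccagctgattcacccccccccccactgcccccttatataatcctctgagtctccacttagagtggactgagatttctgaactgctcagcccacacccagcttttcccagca
Gbp3: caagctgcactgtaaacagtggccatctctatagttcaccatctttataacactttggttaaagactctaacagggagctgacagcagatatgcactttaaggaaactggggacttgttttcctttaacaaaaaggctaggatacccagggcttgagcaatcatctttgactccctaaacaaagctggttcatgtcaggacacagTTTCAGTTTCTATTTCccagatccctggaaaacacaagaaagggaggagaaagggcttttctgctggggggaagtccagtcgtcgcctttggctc

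Isg15 held 3 overlapping matches, and Ifit3 and Gbp3 held 2 each. The letters were found in 1131 of 32851 RefSeq promoters of this length (3.44%). By gene, they stood in 1079 of 27025 with such a promoter (3.99%) and in 267 of the 7643 described here that have one (3.49%). In the interferon and MHC class I list they stood in 4 of 10 genes, among them B2m, the light chain of MHC class I, which was looked up after its values had been seen and had a difference of only -0.22 (interval -0.46 to 0.01). By class, they stood in 6 of 202 genes responding more (2.97%), in 19 of 335 responding less (5.67%) and in 11 of 165 responding oppositely (6.67%). A match in these windows is a run of letters, not a measured binding site, and Oasl2 and Psmb8 had none.

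Genes that encode the respiratory chain in the nucleus fell less in Cripto KO, and they did so together. The respiratory chain passes electrons through complexes I to IV to oxygen and uses the gradient so made to drive ATP synthase, complex V. All 77 nuclear-encoded subunits measured fell in WT, 67 fell in Cripto KO and all 77 had a difference above 0, between 0.09 and 1.55, with a median of 0.80, where 50.6% of all genes had a difference above 0. Only 15 of the 77 reached 1, so the shift was small in each gene. In serum/LIF 76 of the 77 were lower in Cripto KO than in WT, by a median of -0.28, and in F/A 75 were higher, by a median of 0.51.

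The complexes differed little from each other. The medians were 0.77 for 37 subunits of complex I, 0.59 for 4 of complex II, 0.79 for 10 of complex III with cytochrome c, 0.84 for 11 of complex IV and 0.80 for 15 of complex V. Uqcr11, a small subunit of complex III, went from 1118 to 238 in WT and from 708 to 444 in Cripto KO, the largest difference of the set at 1.55 (interval 1.26 to 1.85). Ndufb4 and Ndufb11, accessory subunits of complex I, had 1.23 (interval 0.94 to 1.51) and 1.20 (interval 1.02 to 1.38). Cox4i1, a core regulatory subunit of complex IV, went from 8927 to 2512 in WT and from 7976 to 4606 in Cripto KO, with 1.04 (interval 0.94 to 1.13), and Atp5d, of the rotor of ATP synthase, went from 2796 to 1474 in WT and from 2137 to 2495 in Cripto KO, with 1.15 (interval 1.01 to 1.28). Cox7a1, the muscle isoform, was below 200 counts in every library and thus outside the 77 and the 10811, and went from 114 to 7.5 in WT and from 60.2 to 16.5 in Cripto KO, a difference of 2.06 (interval 0.53 to 3.58).

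Subunits encoded in the mitochondrial genome had a median of 0.00 over 11 and no member at or beyond 1 or -1, but the median was 0.30 with total-count scaling and with DESeq2 size factors and 0.31 with TMM factors. Regulators of mitochondrial biogenesis had a median of 0.14 over 10 and none at or beyond 1 or -1. Ppargc1b, a coactivator of such genes, was below 200 counts in every library, outside the 10811, and its values of 93.2 in WT serum/LIF, 112 in WT F/A, 99.2 in Cripto KO serum/LIF and 117 in Cripto KO F/A hardly moved. Tfam, which packages and transcribes the mitochondrial genome, had -0.55.

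Ribosomal and proteasomal subunits also had mostly positive differences. All 78 cytosolic ribosomal proteins fell in WT and had a difference above 0, with a median of 0.71 and 14 at least 1. Rpl39, a small protein of the exit tunnel, went from 3971 to 1648 in WT and from 3317 to 3429 in Cripto KO, a difference of 1.32 (interval 1.20 to 1.44). Of 73 mitochondrial ribosomal proteins 72 were above 0, with a median of 0.55, and Mrpl12 was the furthest at 1.44 (interval 1.26 to 1.61). Of 37 proteasome subunits 34 were above 0, with a median of 0.51, and Psmb3, of the catalytic core, had 1.44 (interval 1.29 to 1.58). Psmb8, the interferon-induced subunit, was the one at most -1.

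Other metabolic and housekeeping lists lay between these and 0. The median was 0.45 for 21 genes of glycolysis and lactate transport, 0.31 for 24 of pyruvate dehydrogenase and the TCA cycle and 0.34 for 40 of DNA replication. Slc16a1, the lactate and pyruvate transporter, stood against the glycolytic enzymes and went from 1760.2 to 22214 in WT and from 1799 to 9203 in Cripto KO, a difference of -1.30 (interval -1.41 to -1.20). Eno3, the muscle enolase, went from 325 to 706 in WT and from 284 to 1590 in Cripto KO, with 1.36 (interval 1.09 to 1.64), and Ldha, which makes lactate from pyruvate, had 0.99. Fh1, the fumarase of the TCA cycle, had 1.01, and Pold2, a subunit of DNA polymerase delta, had 1.10.

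Short transcripts as a whole had higher differences than long ones. From the shortest eighth of genes, at up to 728 bases, to the longest, at 4129 bases and more, the median difference went from 0.22 to -0.36, and genes at most -1 numbered 48 in the shortest eighth and 143 in the longest, against 89 and 18 at least 1. The change in WT ran with length from a median of -0.43 to 0.45 and that in Cripto KO from -0.17 to 0.09. Respiratory and ribosomal transcripts are short, with medians of 642 bases for complex I and 640 for the cytosolic ribosome. With a running median over length subtracted, 74 of the 77 respiratory subunits kept a difference above 0 and their median was 0.54, and that of the cytosolic ribosome was 0.44. Atp5d, Cox4i1, Ndufb11, Rpl39, Fh1 and Pold2 then lay between 0.83 and 0.96, below the threshold. BMP targets and Nodal targets, at 1.55 and -2.01, kept their direction.

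**Figure D5:**
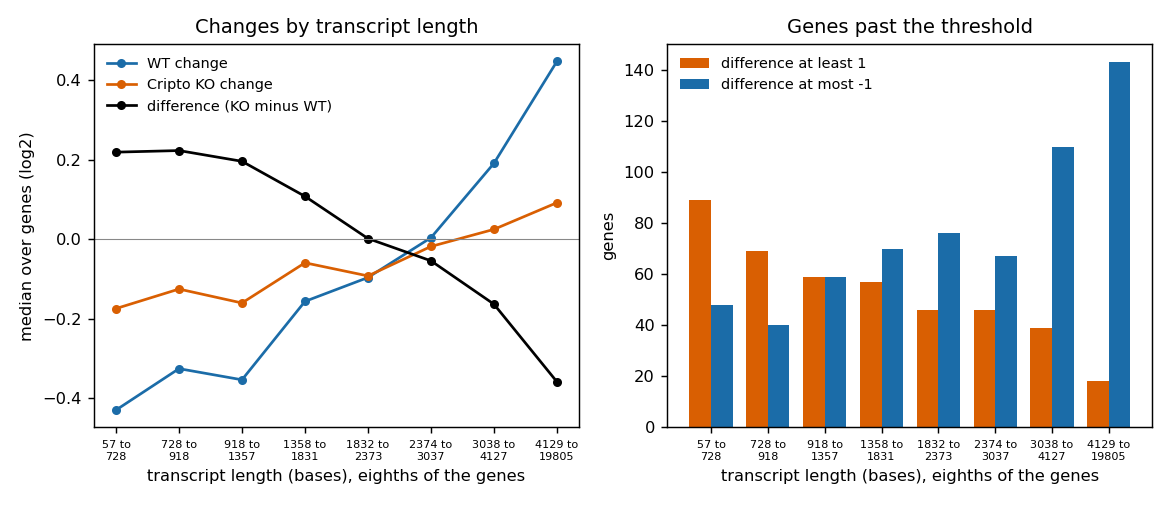
Left, median log2 change in WT and in Cripto KO and median difference of the transitions, over eighths of the genes by transcript length in bases; right, the number of genes with a difference of at least 1 or at most -1 in each eighth. The WT line climbs from -0.43 to 0.45 and the Cripto KO line from -0.17 to 0.09, so their difference falls from 0.22 to -0.36.

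Cell cycle genes were little displaced apart from D-type cyclins. The median was 0.06 over 14 mitosis genes, none of which reached 1 or -1, and -0.14 over 16 G1 regulators. Ccnd1, a D-type cyclin that starts the cell cycle, went from 2325 to 1395 in WT and from 1853 to 2964 in Cripto KO, a difference of 1.41 (interval 1.28 to 1.55), and Ccnd3 went from 3825 to 1571 in WT and from 3001 to 3068 in Cripto KO, with 1.32 (interval 1.19 to 1.44). Ccnd2, the form that rose most steeply in both genotypes, had -0.71.

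Chromatin genes had medians below 0. DNA methylation enzymes had a median of -0.46 over 9 members, and Tet1, which oxidises methylcytosine, went from 4991 to 1428 in WT and from 8130 to 859.8 in Cripto KO, a difference of -1.44 (interval -1.60 to -1.27). Dnmt3b, the de novo methyltransferase of primed cells, had -0.89. Polycomb subunits had a median of -0.09 over 27 members, and Jarid2, which recruits the complex in ESCs, went from 8044 to 4684 in WT and from 11051 to 2710 in Cripto KO, with -1.25 (interval -1.34 to -1.15). Zinc-finger genes named Zfp were below 0 in 144 of 202, with a median of -0.29, 12 at most -1, a share near that of all genes, and 2 at least 1. Zfp503, a corepressor, was among the genes that rose most in excess and went from 25.8 to 258 in WT and from 21 to 1476 in Cripto KO, a difference of 2.81 (interval 2.0 to 3.63). Long intergenic non-coding RNAs were at most -1 in 35 of 223 (15.7%) and at least 1 in 3, with a median of -0.17.

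Fibroblast markers had mostly positive differences. They had a median of 1.11 over 9 members, with 6 at least 1 and 1 at most -1. Col3a1, a fibrillar collagen, had 118 in WT serum/LIF, 73.8 in WT F/A, 154 in Cripto KO serum/LIF and 605 in Cripto KO F/A, a difference of 2.65 (interval 2.15 to 3.15). Of the 9 members 8 reached the count minimum in a WT library, and Col3a1 entered through Cripto KO F/A alone and had to be high there. Col1a1 went from 436 to 524 in WT and from 431 to 1520.1 in Cripto KO, with 1.55 (interval 1.30 to 1.80), and Pdgfrb, a growth factor receptor of mesenchyme, went from 165 to 288 in WT and from 167 to 872 in Cripto KO, with 1.58 (interval 1.20 to 1.96). Twist1 and Snai2, factors of the epithelial to mesenchymal transition, had 1.11 (interval 0.60 to 1.63) and 1.51 (interval 0.51 to 2.51), in a list of 14 such genes with a median of 0.36. The 8 fibroblast markers checked summed to 116 CPM in WT and 123 in Cripto KO in serum/LIF and to 75.0 and 199 in F/A. Dcn and Thy1 were highest in the serum/LIF libraries of either genotype, at 328 and 466 raw counts in WT and 417 and 349 in Cripto KO, and had 5 and 18 in WT F/A and 18 and 28 in Cripto KO F/A; the part of other cells in these values was not tested.

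Epithelial and basement membrane genes lay on both sides of 0. Lama5, a laminin chain, went from 5978 to 20814 in WT and from 6587 to 9600.5 in Cripto KO, a difference of -1.26 (interval -1.32 to -1.19), and Hspg2 (perlecan) went from 5924 to 28394 in WT and from 7475 to 16894 in Cripto KO, with -1.08 (interval -1.14 to -1.02), or -0.52 with the length trend subtracted. Cdh1 (E-cadherin), which holds epithelial cells together, had -0.94 and Tjp1, a tight-junction scaffold, -0.99, both just inside the threshold. Keratins did not run one way. Krt19 went from 153 to 5077 in WT and from 66.5 to 5815 in Cripto KO. Its difference was 1.40 (interval 0.98 to 1.82), the larger part of which lay in serum/LIF. Krt7 and Krt18 were also above 0, and Krt8 had -0.22. The list of 16 junction genes had a median of -0.29 and that of 14 laminin and basement membrane genes -0.03.

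The 5 protein-coding genes with the largest difference in each class, above the detection limit in every library, named further genes outside these lists. Trim67, a ubiquitin ligase, rose least relative to WT, going from 10.2 to 1188 in WT and from 78.8 to 338 in Cripto KO, a difference of -4.75 (interval -5.62 to -3.89). Irs4, an adaptor of insulin signalling, went from 15.2 to 374 in WT and from 41.8 to 60.2 in Cripto KO, with -4.09 (interval -5.04 to -3.14). Both were higher in Cripto KO in serum/LIF and lower in F/A. Slc23a1, a transporter of vitamin C, had 45.5 in WT serum/LIF, 54.8 in WT F/A, 274 in Cripto KO serum/LIF and 28 in Cripto KO F/A, a difference of -3.56 (interval -4.54 to -2.57) that came mostly from serum/LIF. Slc23a1 entered through Cripto KO serum/LIF alone and had to be high there.

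Among genes that rose more, Sdk2, an adhesion protein of the immunoglobulin family, went from 167 to 256 in WT and from 104 to 1130.1 in Cripto KO, a difference of 2.83 (interval 2.42 to 3.25), and Rcsd1, which binds actin capping protein, went from 40.2 to 76.2 in WT and from 24 to 342 in Cripto KO, with 2.91 (interval 2.11 to 3.72). Among genes that fell more, Cnpy1, a regulator of FGF signalling, went from 636 to 41.9 in WT and from 1088 to 14.5 in Cripto KO, a difference of -2.30 (interval -3.51 to -1.10), Caps2 had -2.79 (interval -4.22 to -1.37), and Gm17646 and Gm17386, which have no given function, had -2.39 (interval -3.25 to -1.54) and -2.23 (interval -2.62 to -1.84). Among genes that fell less, Wscd2 went from 212 to 4.25 in WT and from 165 to 32.2 in Cripto KO, with 3.28 (interval 1.73 to 4.84), Sh3tc2 had 2.52 (interval 0.90 to 4.14) and D130058E05Rik 2.79 (interval 2.09 to 3.49). Emid2, a collagen of extracellular matrix also called Col26a1, had 276 in WT serum/LIF, 107 in WT F/A, 216 in Cripto KO serum/LIF and 640.5 in Cripto KO F/A, falling in WT and rising in Cripto KO, a difference of 2.93 (interval 2.52 to 3.34). Ptges, a prostaglandin E synthase, went from 190 to 94.8 in WT and from 113 to 264 in Cripto KO, with 2.23 (interval 1.72 to 2.73), and 4831426I19Rik went down in Cripto KO, from 66.2 to 207 in WT and from 60.2 to 34.2 in Cripto KO, with -2.46 (interval -3.35 to -1.57).

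The difference was spread over the genome. The median per chromosome lay between -0.10 and 0.10 for all autosomes and the X chromosome, and every one of them held genes at both thresholds. Over the range of responses, genes past the threshold were more frequent where the average change was large. Genes whose average change was over 4 upwards had a median difference of -0.27, with 52 of 297 at least 1 and 92 at most -1. Those whose average change was over 4 downwards had -0.12, with 53 and 70 of 290. Between -1 and 1 the median difference was 0.03, with 147 of 7320 at least 1 and 205 at most -1.

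The remaining lists had medians near 0. No member reached 1 or -1 among 21 genes of cholesterol synthesis and uptake (median 0.17), 13 hypoxia-responsive genes (0.15), 12 of serine, glycine and threonine metabolism (0.18) and 8 chaperonin subunits (0.28). Amino-acid stress genes had a median of -0.09, p53 targets 0.13, YAP targets -0.15, Eph receptors and ephrins -0.08, ER chaperones 0.26, mitochondrial carriers 0.12 and neural genes -0.01. Lists with a small median still held members far to either side. Collagens had 0.11, with 3 of 21 at least 1 and 3 at most -1, and haemato-endothelial genes had 0.22, with 2 of 9 at least 1 and 3 at most -1; Flt1, a VEGF receptor, went from 49 to 3747 in WT and from 56 to 1457 in Cripto KO, a difference of -1.55 (interval -2.10 to -1.01). No histone gene and no gene of the 2-cell stage had enough counts.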

How the data were processed

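RNA of the 4 cultures was sequenced as paired-end libraries. The authors aligned the reads to mm9 (NCBIM37) with TopHat2 2.0.13, counted them per gene with HTSeq 0.6.1p1 and deposited these raw counts. The second table the authors deposited holds a signal, the counts after a proportion filter at 1 cpm and full quantile normalization. Each column was matched to its culture by name, and 0 columns were left without a sample. The members and the gene lists were chosen with earlier results of these data known.

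Per gene, log2(F/A / serum/LIF) was computed in each genotype from the normalized values, with 0 replaced by 0.5, and subtracted. Normalization computed again from the raw counts gave the deposited values. Symbols, places and median transcript lengths came from Ensembl 65 on NCBIM37 and named 10805 (99.9%) of the 10811 genes. Reads of overlapping or near-identical genes could be split or lost in counting, and the strand setting is not given in the sources used here. A gene responded more, less or oppositely when its difference was at least 1 or at most -1 and its 2 changes had the same direction and a larger or smaller size in Cripto KO, or opposite directions. The counting interval is the difference ± 1.96 standard errors of the log2 odds ratio of the raw counts, with 0.5 added and the F/A Cripto KO library halved first, and covers counting error only. A gene with a library at or under 3 counts (6 in F/A Cripto KO) was given a bound or no difference. With 1 library per condition no test was made.

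Genes were named by rule: those the study names for its sequencing, the 5 protein-coding genes with the largest difference in each of 6 classes and directions, and up to 4 in each list; some genes so named are not reported here. The other settings tried were total-count scaling, TMM factors of edgeR 4.0.16, size factors of DESeq2 1.42.0 (R 4.3.3), halved counts of F/A Cripto KO, 5 added to each value, a running median over 501 genes by length subtracted, other count minimums, protein-coding genes only, a threshold of 1.5, intervals beyond 0, and, added after seeing the data, genes at the detection limit left out. The steps were tested on simulated data. Python 3.11.15 with numpy 2.4.6, pandas 2.3.3 and matplotlib 3.10.9 was used.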

Additional observations from a re-analysis of the deposited data

Results flagged for a closer look

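In 5 of the 234 genes that changed in opposite directions, the single library pair of WT and that of Cripto KO each moved at least 2-fold. The difference of the transitions was 4.11 for Crabp1, 2.93 for Emid2, 4.38 for Hoxb9, -4.18 for Meg3 and 2.23 for Ptges, on the log2 scale. Since each condition has 1 library, these differences were not tested. Hoxb9 entered through Cripto KO F/A alone and had to be high there. The other 229 genes of that class moved less than 2-fold in at least 1 genotype.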

How the results depend on the processing

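The counts of genes at least 1, at most -1, and responding more, less or oppositely were 424, 614, 323, 481 and 234. They stayed within 1.5 times these values with the 3 other scalings, halved counts of F/A Cripto KO, 5 added to every value, the length trend subtracted, protein-coding genes only, counting intervals beyond 0, and genes at the detection limit left out. In the same order they were 1188, 1451, 882, 1164 and 593 without a count minimum, where more genes were compared, 143, 219, 103, 164 and 95 with at least 1000 counts in a library, where fewer were, and 152, 205, 151, 155 and 51 at a threshold of 1.5. With at least 20 counts in every library 196 genes responded more, and the other 4 counts stayed within 1.5 times. No scaling moved the median of all genes by over 0.01. The share of positive calls was 40.8% and ran from 36.8% to 45.0%.

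Of 62 list medians, that of posterior axis progenitors turned from 0.66 to -0.75 with at least 1000 counts in a library, and that of germline genes from 0.54 to -0.68 without genes at the detection limit. Of the others, 22 moved beyond their counting error with the length trend subtracted, 12 with at least 1000 counts, 7 with each of the 3 scalings and 6 without a count minimum, among them FGF ligands and receptors from 0.37 to -0.93 with at least 1000 counts and primitive endoderm from 0.25 to -1.10 without a minimum. No named gene with a difference at or beyond the threshold changed sign under the 6 settings applied to genes. Of 152 such genes 12, 9, 12, 0, 13 and 22 no longer passed with total-count scaling, TMM factors, DESeq2 size factors, halved counts, 5 added and the length trend subtracted.

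No paired analysis was possible because each condition has 1 library. The spread between cultures or clones is unknown, and depth limits genes near the detection limit, which are given as bounds or levels.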
